A study of Homo sapiens with 4 samples.

Results

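The AP-1 genes followed here were FOS, FOSB, FOSL1, FOSL2, JUN, JUNB, JUND and ATF3. They were taken by gene symbol from the deposited count table, where each symbol had a single entry, so 8 of the 57905 genes were members. The RNA came from A549 cells, a line long established from a human lung adenocarcinoma, in 4 libraries with 1 library per condition. The conditions were a scramble control (sc), an shRNA against DCBLD2 (shDCBLD2), an empty vector, and a vector carrying the DCBLD2 coding sequence (DCBLD2 overexpression, labelled OE). The paper describes stable lentiviral lines for both DCBLD2 alterations, and the libraries are taken here to come from such lines. The hairpin lines carried a vector with puromycin resistance, while the coding sequence was expressed from an EF1 promoter in a vector selected with blasticidin. The sources do not state whether a line was a clone or a pool, and the labels name no drug treatment of the sequenced cells.

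AP-1 is a dimer of basic leucine zipper (bZIP) proteins. Jun proteins pair with each other or with Fos proteins, whereas Fos proteins need a Jun partner, and ATF3 can join Jun proteins as well. The dimers bind a short palindrome known as the TPA response element, or the related cyclic AMP response element. ERK and JNK signaling raise FOS and JUN transcription within minutes in many cells, and the Fos-related proteins encoded by FOSL1 and FOSL2 follow later. In carcinoma cells AP-1 is known for driving proteases, cytokines and genes of invasion. The study addressed AP-1 as a regulator of DCBLD2 under cisplatin, in cisplatin-resistant lines rather than in the A549 cells sequenced here. The libraries described here bear on how AP-1 transcripts stood in cells with altered DCBLD2.

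The promoters of several members hold sequences of the kind that these same proteins bind. The windows below show matches to an 8-letter pattern in JUN, ATF3 and JUND. JUN and ATF3 were at least 2-fold higher in the library labelled OE than with the empty vector, while JUND was not. Any link between the match and the levels was not tested. RefSeq promoters on GRCh38.p14, from 250 bases before to 50 bases after the start, were at hand for 7 of the 8 members, all but FOSL1, with 2 entries for ATF3. Only 1 of the 2 ATF3 entries held a match. Capitals mark the match, and each window is written 5′ to 3′ on the strand of the gene. The JUN window is chr1:58784077-58784144 on the minus strand, with its match starting 67 bases upstream of the start. The ATF3 window is chr1:212565254-212565321 on the plus strand, with the match 123 bases upstream. The JUND window is chr19:18281785-18281852 on the minus strand, with the match 200 bases upstream.
JUN: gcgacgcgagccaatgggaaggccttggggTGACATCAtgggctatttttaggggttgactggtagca
ATF3: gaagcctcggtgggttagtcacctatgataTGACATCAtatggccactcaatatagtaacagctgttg
JUND: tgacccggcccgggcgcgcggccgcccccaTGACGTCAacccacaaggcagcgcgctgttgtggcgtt

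The letters searched on both strands were TGACNTCA, which these 3 genes hold in the windows above. Of all 35116 RefSeq promoters of the same length, 7.72% hold this motif. The shorter TGACGT, which lies inside TGACGTCA, was found 64 bases upstream of FOS, 60 bases upstream of FOSB and 66 bases upstream of FOSL2, as well as in JUND. It occurs in 7.98% of all promoters. These windows show how the match sits upstream of the Fos genes.
FOS: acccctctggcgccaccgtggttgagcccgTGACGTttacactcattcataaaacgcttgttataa
FOSB: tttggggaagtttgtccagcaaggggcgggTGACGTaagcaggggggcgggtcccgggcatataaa
FOSL2: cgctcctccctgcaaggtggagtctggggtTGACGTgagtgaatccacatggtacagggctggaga

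The FOS window is chr14:75278734-75278799, the FOSB window chr19:45467906-45467971 and the FOSL2 window chr2:28392762-28392827, all on the plus strand. The canonical letters TGANTCA, found in 7.71% of all promoters on either strand, occurred among the members only at FOSL2. There they lay 4 to 10 bases downstream of the first base of the transcript. The DCBLD2 and JUNB windows held none of the letters searched, and no member window held a CArG box, which 1.29% of promoters hold. Sequence more than 250 bases upstream was not searched. The AP-1 element that the paper reports in the DCBLD2 promoter lies further upstream than that, so its absence here does not bear on it. A match is a description of letters and not of binding.

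Counts on genes came to between 16601633 and 21537283 per library, and the largest total was 1.30 times the smallest. Counts were scaled with TMM factors, and levels are given as counts per 1000000 (CPM) with an exact Poisson 95% interval. Ratios are log2 ratios with a prior count of 2 and an exact Clopper-Pearson 95% interval. Both intervals cover counting error only. Since each condition was sequenced once, nothing here has been checked in replicates, no p-value is given, and each comparison is of libraries rather than of conditions. A gene counted as higher or lower if the ratio reached 2-fold and the interval left out a ratio of 0. DCBLD2, the targeted gene, was below its control in both altered lines. It had 9859 counts in sc against 4259 in shDCBLD2, a log2 ratio of -1.35 (-1.40 to -1.30), and 7970 counts with the empty vector against 4000 in the library labelled OE, a ratio of -0.84 (-0.90 to -0.79) that goes against the label. The name of that library below is therefore only its label. The epithelial markers of A549 cells were present, with 10 of 10 above 3 counts in every library. Their summed level was 19294 CPM in shDCBLD2 and 25263 to 30274 CPM in the others, and CDH1, EPCAM and KRT19 were counted as lower in shDCBLD2 than in sc. EPCAM and KRT19 were counted as higher in the library labelled OE than with the empty vector. Fibroblast-like markers summed to 38.2 to 82.3 CPM, highest in the library labelled OE, with FAP at 0 in every library. Most of that sum was COL1A1, at 32.7 to 63.1 CPM. The library labelled OE also had 67 counts of COL1A2 against 0 with the empty vector, 68 of COL3A1 against 6 and 42 of POSTN against 0. In sc, COL1A2 had 17 counts. THY1 of the same list was on the other side, with 114 counts against 160 with the empty vector, a log2 ratio of -0.33 (-0.70 to 0.02). Blood-like markers summed to 5.15 to 24.3 CPM, with PTPRC at 0 throughout, and the 4 endothelial-like markers found summed to at most 0.153 CPM. Most of the blood-like sum was CD14, at 3.48 to 20.1 CPM.

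The deposited annotation, which names no build, places the Jun genes JUN (ENSG00000177606) at chr1:59246465-59249785 on the minus strand, JUNB (ENSG00000171223) at chr19:12902310-12904124 on the plus strand and JUND (ENSG00000130522) at chr19:18390563-18392432 on the minus strand. It places FOS (ENSG00000170345) at chr14:75745477-75748933, FOSB (ENSG00000125740) at chr19:45971253-45978437, FOSL2 (ENSG00000075426) at chr2:28615315-28640179 and ATF3 (ENSG00000162772) at chr1:212738676-212794119, all on the plus strand. FOSL1 (ENSG00000175592) is at chr11:65659520-65668044 on the minus strand.

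Among the members, FOSL1 varied most over the 4 libraries and FOSL2 least. The highest level of FOSL1 was 5.08 times its lowest, a range wider than that of 95.1% of the 13966 genes with a mean of at least 1 CPM. For ATF3 the corresponding ratio was 3.42, for FOS 3.17, for JUN 2.94, for JUNB 2.52, for JUND 2.44 and for FOSL2 1.26. FOSB had a mean of 0.818 CPM and was the only member below 1 CPM, so 7 members entered the summaries over genes.

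**Figure D1:**
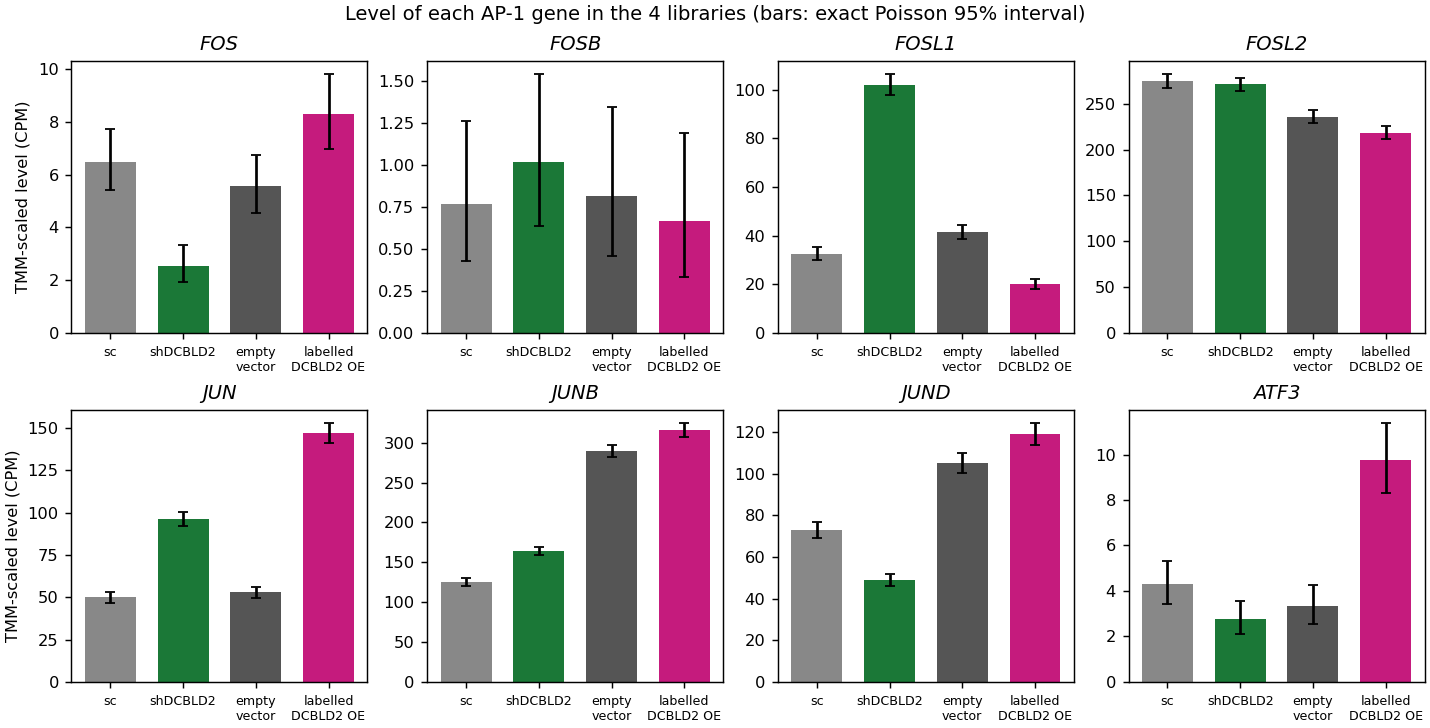
Level of each AP-1 gene in the 4 libraries, as TMM-scaled counts per 1000000 on a linear axis from 0 that differs between panels, with exact Poisson 95% intervals. FOSL1 stood at 102 CPM in shDCBLD2 and 19.99 CPM in the library labelled OE (drawn as labelled DCBLD2 OE), JUN was higher in both altered lines than in either control, and JUNB was split between the pairs of lines.

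FOSL1 encodes FRA-1, a Fos protein without the C-terminal activation region of c-Fos that is abundant in many mesenchymal-like carcinoma cells. It had 637 counts in sc and 2202 counts in shDCBLD2, or 32.6 CPM (30.1 to 35.2) against 102 CPM (97.9 to 106). It had 760 counts with the empty vector and 330 counts for the library labelled OE, or 41.4 CPM (38.5 to 44.5) against 19.99 CPM (17.9 to 22.3). The shDCBLD2 library was thus the highest, the library labelled OE the lowest, and both controls lay between. The log2 ratio of shDCBLD2 to sc was 1.65 (1.52 to 1.78), a 3.13-fold higher level that exceeded 99.8% of genes. For the library labelled OE against the empty vector it was -1.05 (-1.24 to -0.86), 2.07-fold lower. Between the controls, empty vector over sc, it was 0.35 (0.19 to 0.50). The size of the lower value depended on the control, since the ratio to sc was -0.70 (-0.90 to -0.51), under the 2-fold threshold. The higher level in shDCBLD2 stayed above the threshold against the empty vector, at 1.30 (1.18 to 1.42). FOSL1 thus stood on opposite sides of its control in lines that were both below their control in DCBLD2. In bulk RNA, fewer cells that express a gene and less of its RNA per cell cannot be told apart. FOSL1 overlaps no other deposited gene.

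JUN encodes c-Jun, the Jun protein that JNK activates and that can form dimers with itself. It had 978 counts in sc, 2072 in shDCBLD2, 972 under the empty vector and 2426 for the library labelled OE. Its level was 49.99 CPM (46.9 to 53.2) in sc and 53.0 CPM (49.7 to 56.4) with the empty vector, so the controls did not differ beyond counting error. It was 96.1 CPM (91.96 to 100.3) in shDCBLD2 and 147 CPM (141 to 153) in the library labelled OE. Both altered lines were above both controls. The log2 ratio was 1.47 (1.36 to 1.58) for the library labelled OE against the empty vector, 2.77-fold higher, and 0.94 (0.83 to 1.05) for shDCBLD2 against sc, which at 1.92-fold was just short of the threshold. Among all genes these ratios stood at percentiles 96.2 and 98.5. Between the controls the JUN ratio was 0.08 (-0.05 to 0.21).

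ATF3 encodes a stress-induced bZIP factor that represses or activates its targets depending on its partner. It was counted at a low level, with 84 counts in sc, 60 in shDCBLD2, 61 under the empty vector and 161 for the library labelled OE. The last was the highest, at 9.75 CPM (8.31 to 11.4) against 3.32 CPM (2.54 to 4.27) with the empty vector. The log2 ratio was 1.52 (1.12 to 2.003), 2.88-fold higher, and 1.16 (0.79 to 1.58) with sc as control. In shDCBLD2 against sc it was -0.61 (-1.13 to -0.13), and in the empty vector against sc -0.36 (-0.87 to 0.12). ATF3 overlaps RN7SL512P, which had no count in any library.

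FOS encodes c-Fos, the immediate-early partner of c-Jun. It had 127 counts in sc, 55 in shDCBLD2, 102 under the empty vector and 137 for the library labelled OE. The shDCBLD2 library was below the rest, at 2.55 CPM (1.92 to 3.32) against 6.49 CPM (5.41 to 7.72) in sc, while the other 3 lay between 5.56 and 8.30 CPM. The log2 ratio of shDCBLD2 to sc was -1.31 (-1.83 to -0.88), 2.48-fold lower, and -1.09 (-1.62 to -0.64) against the empty vector. For the library labelled OE against the empty vector it was 0.57 (0.20 to 0.96), and between the controls -0.22 (-0.61 to 0.16). FOS and FOSL1 thus stood in opposite order in shDCBLD2, with FOS at its lowest and FOSL1 at its highest.

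JUNB encodes a Jun protein that can restrain c-Jun in some settings. It had 2453 counts in sc, 3543 in shDCBLD2, 5312 under the empty vector and 5212 for the library labelled OE. In CPM these were 125 (120 to 130), 164 (159 to 170), 289 (282 to 297) and 316 (307 to 324). The split lay between the hairpin lines and the vector lines rather than within either pair. The log2 ratio of the empty vector to sc was 1.21 (1.14 to 1.28), 2.31-fold higher. It was 0.39 (0.31 to 0.46) for shDCBLD2 against sc and 0.13 (0.07 to 0.18) for the library labelled OE against the empty vector. With sc as control for the latter it was 1.33 (1.26 to 1.40). Against the empty vector JUNB in shDCBLD2 was -0.82 (-0.88 to -0.76), so its side in shDCBLD2 turned with the control. JUNB overlaps HOOK2 on the opposite strand, which had 321 to 367 counts, and the sources do not say whether counting used the strand.

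JUND encodes the Jun protein that most cells express constantly. It had 1425 counts in sc, 1052 in shDCBLD2, 1931 under the empty vector and 1963 for the library labelled OE, or 72.8 CPM (69.1 to 76.7), 48.8 CPM (45.9 to 51.8), 105 CPM (101 to 110) and 119 CPM (114 to 124). It was lowest in shDCBLD2 and highest in the library labelled OE, and the controls differed. The log2 ratio was -0.58 (-0.70 to -0.46) for shDCBLD2 against sc, 0.18 (0.09 to 0.27) for the library labelled OE against the empty vector and 0.53 (0.43 to 0.63) for the empty vector against sc. With the empty vector as control the ratio for shDCBLD2 was -1.11 (-1.22 to -0.9999), past the threshold. JUN, JUNB and JUND have no intron in the deposited coordinates, where the exonic length of each equals its span.

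FOSL2 encodes FRA-2, the Fos-related protein closest in behaviour to FRA-1. It had 5383 counts in sc, 5856 in shDCBLD2, 4330 under the empty vector and 3607 for the library labelled OE, or 275, 271, 236 and 219 CPM. Its log2 ratios were the smallest of the members that passed 1 CPM in the hairpin and vector pairs, at -0.02 (-0.07 to 0.03) for shDCBLD2 against sc and -0.11 (-0.17 to -0.05) for the library labelled OE against the empty vector. Between the controls it was -0.22 (-0.28 to -0.16). FOSB, an immediate-early gene like FOS, had 15, 22, 15 and 11 counts in the same order of libraries, and each of its 3 intervals included no change, the widest from -1.56 to 0.93. A 2-fold lower level of FOSB lay inside that interval, so a difference of that size was not detectable there at this depth. FOSB overlaps ERCC1 on the opposite strand, which had 2291 to 3323 counts.

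Over the 7 members past 1 CPM, 2 were higher and 1 lower in the library labelled OE than with the empty vector, where 6.42% and 5.35% of the 13966 genes were higher and lower. In shDCBLD2 against sc, 1 was higher and 1 lower, against 1.16% and 5.62% of all genes. In the empty vector against sc, 1 was higher and 0 lower, against 2.22% and 1.89%. The median log2 ratio of the members was 0.18, -0.02 and 0.08 in these comparisons, and that of all genes was -0.04, 0.01 and -0.01. Against the other control, 3 members were higher and 0 lower in the library labelled OE than in sc, where 8.08% and 8.98% of genes were, and 1 was higher and 2 lower in shDCBLD2 than with the empty vector, where 2.23% and 8.01% were. These counts share libraries with those above. The members stood on both sides of 0 in every comparison. JUN was above its control in both altered lines, FOSL1 stood on opposite sides, FOS was lower in shDCBLD2, and ATF3 was higher in the library labelled OE. The ratio of the empty vector to sc shows the distance between lines that were both controls but carried different vectors and drugs, and JUNB differed more there than in either altered line against its own control.

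**Figure D2:**
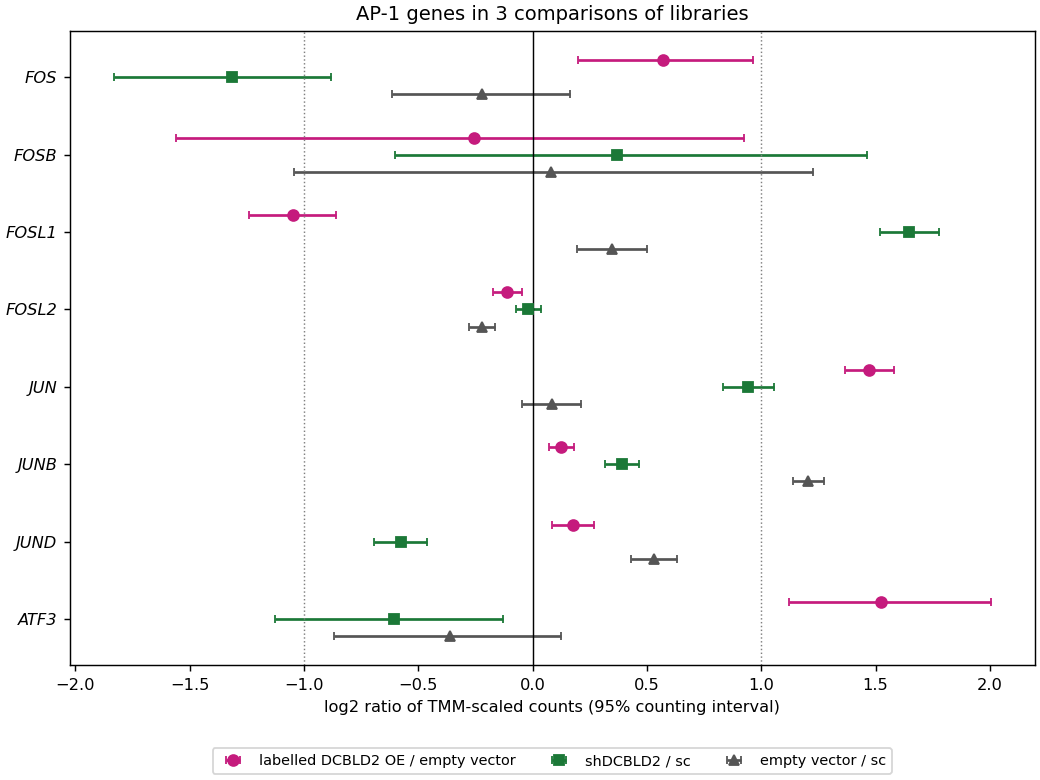
Log2 ratio of each AP-1 gene (horizontal axis) in 3 comparisons of libraries, with 95% counting intervals. Dotted lines mark a 2-fold difference. FOSL1 lies at 1.65 for shDCBLD2 over sc and at -1.05 for the library labelled OE (drawn as labelled DCBLD2 OE) over the empty vector, JUN lies to the right in both, and JUNB passes 2-fold only between the controls.

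Base composition moved with these libraries. Genes were placed in deciles of the GC content of their longest GENCODE 29 transcript, known for 98.0% of the 13966 genes. In the library labelled OE against the empty vector, the median log2 ratio was -0.61 in the lowest decile and 0.29 in the highest. It ran from 0.13 to -0.08 in shDCBLD2 against sc and from -0.13 to 0.26 in the empty vector against sc. JUND (69.7% GC) and JUNB (64.9% GC) lay in the highest decile, and their ratios of 0.18 and 0.13 in the library labelled OE were below its median, at -0.12 and -0.17 after subtracting it. Centred on the decile median, an alternative chosen after seeing the data, JUNB in the empty vector against sc came to 0.95, under the threshold, and JUN in shDCBLD2 against sc to 1.02, above it. FOSL1 came to -1.34 and 1.74, JUN to 1.23 and ATF3 to 1.60 in the comparisons where they had passed, and FOS to -1.26 in shDCBLD2 against sc. The marker sums given above also differed between libraries, and their part in the members' ratios was not tested.

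Levels between genes were compared per length, on the deposited FPKM values, which are relative to library totals. JUNB was the most abundant member in every library, at 70.7 FPKM in sc, 90.6 in shDCBLD2, 156 under the empty vector and 173 for the library labelled OE. It exceeded 95.8% to 98.4% of the genes past 1 CPM. FOSB was the least abundant, at 0.12 to 0.18 FPKM, with ATF3 (0.70 to 2.42) and FOS (0.79 to 2.55) next. Neighbouring members whose counting intervals overlapped were JUND and FOSL2 as well as FOSL1 and JUN in sc, JUN and JUND as well as FOS and ATF3 in shDCBLD2, and FOS and ATF3 in the library labelled OE. All other neighbours in the order were separated by more than counting error.

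The make-up of the Fos and Jun transcripts differed between libraries. FOSL2 made up 66.5% of the summed FPKM of the 4 Fos genes in sc, 58.1% under the empty vector and 69.7% for the library labelled OE. In shDCBLD2 it made up 40.8%, and FOSL1 made up 58.2%, against 29.8% in sc, 38.7% under the empty vector and 24.2% for the library labelled OE. FOSL1 thus stood above FOSL2 in shDCBLD2 and below it in the other 3 libraries. FOS held 0.848% to 5.85% of the sum and FOSB 0.193% to 0.275%. Among the Jun genes, JUN held 12.2% of the summed FPKM in sc, 19.9% in shDCBLD2, 6.89% under the empty vector and 15.7% for the library labelled OE. JUND was 2.59 times JUN in sc, 3.53 times with the empty vector, 1.44 times in the library labelled OE and 0.902 times in shDCBLD2. Summed Jun FPKM was 2.13 times summed Fos FPKM in sc, 1.56 times in shDCBLD2, 4.08 times with the empty vector and 6.43 times in the library labelled OE. Transcript levels do not give the amounts of protein or of dimers.

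**Figure D3:**
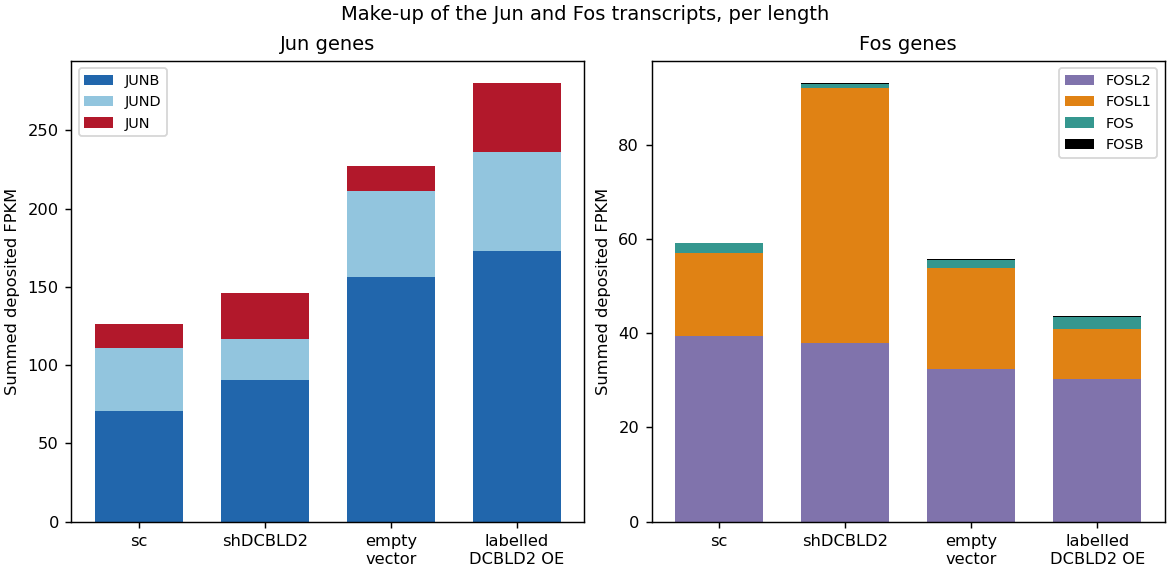
Summed deposited FPKM of the Jun genes (left) and the Fos genes (right) in each of the 4 libraries, stacked by gene. FOSL1 makes up 58.2% of the Fos sum in shDCBLD2 and 24.2% in the library labelled OE (drawn as labelled DCBLD2 OE), and JUNB is the largest part of the Jun sum in every library.

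The pairs shDCBLD2 with sc and the library labelled OE with the empty vector share no library, so their ratios can be set side by side. FOSL1 lay among the genes with a high ratio in the former and a low ratio in the latter, and JUN was high in both. FOS and ATF3 lay to the other side, above their control in the vector pair and below it in the hairpin pair. With the other control the interval included no change for FOS in the library labelled OE (0.35, -0.004 to 0.71). The same held for ATF3 in shDCBLD2 (-0.25, -0.80 to 0.28).

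**Figure D4:**
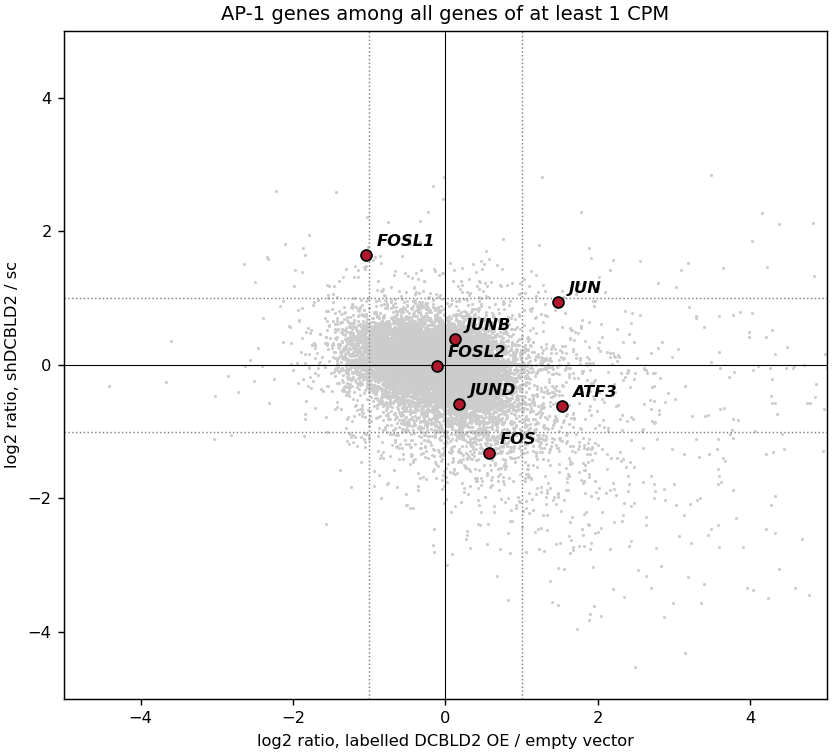
Log2 ratio of the library labelled OE (drawn as labelled DCBLD2 OE) to the empty vector (horizontal) against that of shDCBLD2 to sc (vertical) for all genes with a mean of at least 1 CPM (grey) and the 7 AP-1 genes among them (red). Dotted lines mark 2-fold, 62 genes lie outside the axes at 5 on either side, and FOSL1 stands at the upper left and JUN at the upper right.

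For the 7 members past 1 CPM, the genes with the nearest profile over the 4 libraries were sought among 10828 other genes of at least 5 CPM, by the Euclidean distance of centred log2 CPM. SPOCK1 (distance 0.165) and MOB3B (0.214) were nearest to FOSL1, and SPOCK1 stood at 15.2 CPM in sc, 44.0 in shDCBLD2, 17.5 under the empty vector and 9.69 for the library labelled OE. GATA3 (0.232) and HOXA10 (0.327) were nearest to JUN, PRSS3 (0.125) and BAMBI (0.129) to ATF3, THRA (0.0435) and MGAT3 (0.0584) to FOS, MAP1LC3A (0.149) and FLJ27365 (0.185) to JUNB, ATHL1 (0.0407) and TMEM42 (0.0411) to JUND, and AIFM2 (0.0200) and ZCCHC2 (0.0232) to FOSL2. The 4 points share 4 libraries, and likeness over them is a description.

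Related bZIP factors, a list of 14 genes, include alternative partners of Jun. Of the 12 past 1 CPM, 3 were higher and 0 lower in the library labelled OE than with the empty vector. Of all genes, 6.42% were higher there and 5.35% lower. MAF and MAFA passed the filter only through that library, at 5.15 and 4.30 CPM. Elsewhere they stood at 0.05 to 0.46 CPM and at 0.20 to 1.04 CPM, so the filter favoured their being counted as higher. In shDCBLD2 against sc 2 of the 12 were higher and 0 lower, where 1.16% of all genes were higher and 5.62% lower. MAF, a lineage factor, had 85 counts against 4, a log2 ratio of 4.02 (3.15 to 6.47). MAFA, best known from pancreatic beta cells, had 71 counts against 19 (1.95, 1.31 to 2.87), and CREB5, a relative of ATF2, had 94 against 27 (1.88, 1.32 to 2.63). CREB5 was also higher in shDCBLD2, with 91 counts against 23 in sc (1.76, 1.17 to 2.57), so like JUN it stood above the control in both altered lines. MAF was the other higher gene there, with 10 counts against 1 (1.86, 0.37 to 8.62). MAFA was the single gene called between the controls, with 19 counts in the empty vector and 4 in sc. Of all genes, 2.22% were higher and 1.89% lower in that pair. The list medians were 0.20, -0.02 and 0.28 in the vector pair, the hairpin pair and the pair of controls, the order kept below. JDP2, a repressor that pairs with Jun, was named after its values were seen, with 566 to 800 counts and log2 ratios of 0.28, 0.34 and 0.46.

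Other immediate-early genes are transcribed with FOS and JUN after a stimulus. Of 21 past 1 CPM, only EGR1, a zinc finger factor induced through ERK, was higher in the library labelled OE, with 56 counts against 10 (2.43, 1.65 to 3.78), and 0 were lower. Of all genes, 6.42% were higher and 5.35% lower in that comparison. EGR1 stood at 3.39 CPM in that library and at 0.545 to 1.64 CPM elsewhere. Without that library its mean would fall below 1 CPM, so the filter favoured its being counted as higher there. In shDCBLD2 against sc only EGR1 was lower, with 15 counts against 32 (-1.12, -2.22 to -0.31), and 0 were higher. Of all genes, 5.62% were lower and 1.16% higher there. EGR1 was also lower in the empty vector than in sc (-1.42, -2.78 to -0.53), so its ratio between the controls was as far from 0 as that in shDCBLD2. NR4A3 was lower there too (-1.27, -2.01 to -0.69), where 1.89% of all genes were. DUSP1, which switches off MAP kinases and was named after its values were seen, had log2 ratios of -0.73, 0.18 and 0.47. CCN1, a matricellular gene likewise named afterwards, had 0.93 (0.84 to 1.03) in shDCBLD2 against sc. The list medians were 0.25, 0.18 and 0.15.

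Upstream kinases and serum response factor genes carry the signal to FOS and JUN. Of 19 past 1 CPM, 1 was higher and 2 were lower in the library labelled OE. Of all genes, 6.42% were higher and 5.35% lower there. RPS6KA2, a kinase below ERK, had 84 counts against 1 with the empty vector, a log2 ratio of 5.02 (4.03 to 11.9). It stood at 5.09 CPM in the library labelled OE and at 0.05 to 0.15 CPM elsewhere, so it passed the filter only through that library. MAP2K4, a kinase that activates JNK, had 240 counts against 573 (-1.10, -1.33 to -0.88), and RPS6KA5 had 37 against 125 (-1.56, -2.17 to -1.06). MAP2K7, the other JNK-activating kinase of the list, named after its values were seen, stood on the other side, with 846 counts against 607 (0.63, 0.48 to 0.79). In shDCBLD2 against sc and in the empty vector against sc, 0 of the 19 genes were called. Of all genes, 1.16% were higher and 5.62% lower in the former, and 2.22% and 1.89% in the latter. The list medians were -0.18, 0.11 and -0.11.

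Genes known as AP-1 targets code for proteases, matrix proteins and cytokines. Of 19 past 1 CPM, 4 were higher and 1 lower in shDCBLD2 than in sc, where 1.16% and 5.62% of all genes were. Between the controls, 1 of the 19 was higher and 1 lower, where 2.22% and 1.89% of all genes were. Among the higher genes, the cytokine gene IL6 had 66 counts against 20 (1.49, 0.84 to 2.38). IL11, another cytokine gene, named after its values were seen, had a log2 ratio of 1.06 (0.98 to 1.14). PTGS2, the inducible cyclooxygenase, was lower, with 161 counts against 773 (-2.39, -2.66 to -2.16). In the library labelled OE against the empty vector, PTGS2 (1.87, 1.70 to 2.05) and CXCL8 (1.35, 1.18 to 1.53), a neutrophil chemokine, were higher and IL6 was lower (-1.19, -2.29 to -0.37). No other gene of the list was called there, where 6.42% of all genes were higher and 5.35% lower. Against these controls IL6 stood on the same sides as FOSL1, and PTGS2 on the same sides as FOS and ATF3. With the other control IL6 was not called in either line. Its log2 ratio was -0.24 (-1.37 to 0.79) for the library labelled OE against sc. For shDCBLD2 against the empty vector it was 0.54 (-0.03 to 1.18), and between the controls 0.95 (0.20 to 1.88). PTGS2 kept its sides with the other control but was not called in the library labelled OE, at 0.81 (0.68 to 0.95) against sc. In shDCBLD2 against the empty vector PTGS2 was still lower, at -1.33 (-1.62 to -1.07). PLAU was higher (1.09, 1.01 to 1.17) and PTGS2 lower (-1.06, -1.25 to -0.88) in the empty vector than in sc. The list medians were 0.02 in the library labelled OE against the empty vector, 0.28 in shDCBLD2 against sc and 0.34 between the controls. The collagenase genes MMP1 and MMP13 and the stromelysin genes MMP3 and MMP10, also named afterwards, had at most 9 counts in any library.

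The stress response list holds genes induced alongside ATF3 when protein folding or amino acid supply fails. Of 12 genes, all past 1 CPM, 2 were higher and 0 lower in the library labelled OE, against 6.42% and 5.35% of all genes. SESN2, a sestrin, had 870 counts against 283 (1.77, 1.58 to 1.97), and CHAC1, which degrades glutathione, had 339 against 185 (1.02, 0.76 to 1.29). CHAC1 was also higher in the empty vector than in sc (1.21, 0.85 to 1.62), where 2.22% of all genes were. ATF4, the factor upstream of ATF3 in this response, had 0.50 (0.45 to 0.55) and DDIT3 -0.06 (-0.45 to 0.34), both named after their values were seen. In shDCBLD2 against sc 0 of the 12 were called, where 1.16% of all genes were higher and 5.62% lower. The list medians were 0.03, -0.05 and 0.29.

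**Figure D5:**
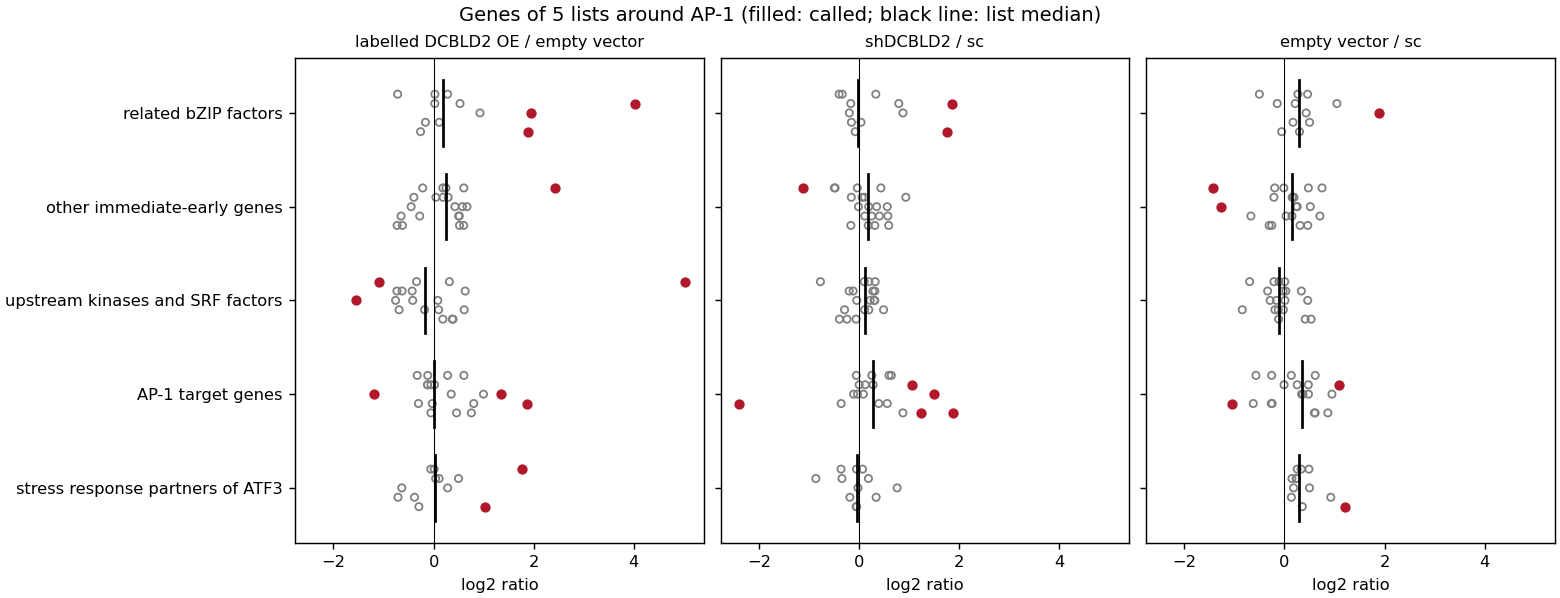
Log2 ratios of single genes (points) in 5 lists around AP-1, in 3 comparisons of libraries. Filled points are at least 2-fold with an interval that excludes no change, black lines are list medians, vertical jitter carries no value, and labelled DCBLD2 OE is that library. The median of AP-1 target genes is 0.28 for shDCBLD2 over sc and 0.34 between the controls.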

How the data were processed

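RNA-seq of 4 A549 libraries was used, 1 per condition. The authors deposited raw counts for each gene together with FPKM values, which follow from those counts, the exonic length and the library total to within 0.005. The deposited files of single libraries held the same values as the table. Libraries were made from poly(A) RNA per the labels. The submitters' processing notes name mm9, a mouse build, whereas the gene identifiers are human. The aligner, counting program and strand setting are not given in the sources used here.

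Counts were scaled with TMM factors (edgeR 4.0.16, R 4.3.3). DESeq2 1.42.0 gave the size factors of an alternative scaling. Ratios and intervals were computed in Python 3.11.15 with numpy 2.4.6, scipy 1.17.1 and pandas 2.3.3, and plots with matplotlib 3.10.9. The call rule was tested on simulated data that held counting error only, which cannot show how it behaves under variation between cultures or libraries. Calls were counted over the 13966 genes with a mean of at least 1 CPM. The members and the lists were chosen with earlier results of these data known, and the lists were written from general knowledge. Named genes were the members, up to 2 called genes at each end of a list, and the 2 nearest profiles of each member. Some genes of the target list that the rule or the counts cover are not reported here by name. List genes absent under a current symbol were read under an older one. Alternatives were other scaling, prior counts of 0.5 and 5, a 1.5-fold threshold, other expression filters, thinned counts, the other control library and centring by GC content. Promoter sequences are from RefSeq (GRCh38.p14) and were not tied to the deposited coordinates.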

Additional observations from a re-analysis of the deposited data

How the results depend on the processing

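No paired analysis was possible because each condition has 1 library. Scaling by DESeq2 size factors or library totals, prior counts of 0.5 and 5, and thinning to 16601633 counts moved no count of called members by over 1.5 times. Over all alternatives, 157 single-gene ratios were recomputed. No ratio that had passed the threshold changed sign. In 8 of the 157 an uncalled ratio did, 3 of them within the counting interval. The other 5 were JUNB in shDCBLD2 against the empty vector (-0.82), FOSL2 there (0.20), and after centring by GC content FOSL2 in shDCBLD2 (0.038) and JUNB (-0.17) and JUND (-0.12) in the library labelled OE. Of all ratios, 139 stayed within their counting interval, and 18 did not, 8 with the other control library and 9 after centring by GC content. Calls changed in 5 of the 157, 3 with the other control library and 2 after centring by GC content.

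With sc as control for the library labelled OE, 0 members were lower and the median was 0.71. With the empty vector as control for shDCBLD2, 2 were lower and the median was -0.25. At a 1.5-fold threshold, 2 were higher and 2 lower in shDCBLD2 against sc, and with all 8 members its median was 0.17. After centring by GC content, chosen after seeing the data, the median for the library labelled OE was -0.12, shDCBLD2 against sc had 2 higher members and a median of 0.038, and the empty vector against sc had 0 higher. The cause of these shifts was not tested. At the counts of FOSB, and to a lesser degree of FOS and ATF3, counting error limits what could be seen.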
